A study of Rattus norvegicus with 4 samples.

Results

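The genes described here encode members of the activin, inhibin, bone morphogenetic protein (BMP) and TGF-beta family and the proteins that bind them: the ligand subunits *Inha*, *Inhba*, *Inhbb*, *Bmp4*, *Bmp15* and *Tgfb2*, the secreted antagonists *Fst* and *Nog*, and the receptors *Tgfbr3l* and *Amhr2*. They were taken by symbol from the table of counts and are 10 of its 30058 genes. Single-cell RNA sequencing was done on dispersed anterior pituitary cells of postpubertal Sprague Dawley rats, with 4 pituitaries pooled for each sex. The female pool was taken at 44 days of age in diestrus and the male pool at 59 days, both without treatment, and each pool was loaded on 2 lanes of a 3′ kit that counts transcripts by unique molecular identifiers (UMIs). The question was how expression depends on cell type and on sex. The lanes of a sex are technical replicates of 1 pool. Tests between the sexes thus set the difference between a female and a male pool against the error between lanes. Tests between cell types used sums per type and sex, so their error is the spread that type and sex leave between the 2 pools. That spread includes any sex difference that varies with the type. Sex, pool and age cannot be told apart.

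Activins are dimers of the beta subunits encoded by *Inhba* and *Inhbb*, and inhibins pair the alpha subunit encoded by *Inha* with a beta subunit. Activins act through type II and type I receptors and SMAD2 and SMAD3, and in gonadotrophs they raise the synthesis of follicle-stimulating hormone. Inhibins compete for the type II receptors with the help of coreceptors, follistatin (*Fst*) binds activins, and noggin (*Nog*) binds BMPs, so the output depends on which cells make which of these proteins.

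Cells were assigned to 9 types by marker genes, and no member is among these genes: gonadotrophs (G), thyrotrophs (T), lactotrophs (L), somatotrophs (S), corticotrophs (C), folliculostellate cells (FSC, which make no classical hormone), endothelial cells (EC), leukocytes (Le) and erythrocytes (E). Of 7861 cells, 6847 were kept, from 88 T and 240 G to 2312 FSC, and lanes held 16190295 to 19723849 UMIs in these cells. The Y-linked gene *Eif2s3y* had 0 and 1 UMIs in lanes 1 and 2 (female) and 2038 and 2100 in lanes 3 and 4 (male). *Ddx3y*, also Y-linked, had 10 and 8 UMIs in the female and 11 and 14 in the male lanes, which does not set the sexes apart. Of the marker genes of all types but E, 1 (*Cga*, shared by G and T) was higher in a type other than the one checked. Since the cells were assigned by these same genes, this is largely fixed in advance and is no independent test of the types. The markers of E and those common to hormone-producing cells were not checked. Among the kept cells, 50 carried a barcode sequence also found in another lane. Levels are given as UMIs per 1000000 UMIs of the type (CPM). A cell counts as expressing a gene when its scaled count reaches the Otsu threshold of that gene, and shares carry exact Clopper-Pearson 95% intervals, which cover counting error only. Differences were tested with edgeR's quasi-likelihood test on summed counts, with a Benjamini-Hochberg adjusted p below 0.001 as the limit.

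The members were spread over hormone-producing and other cells. *Inha*, *Fst*, *Tgfbr3l* and *Amhr2* were highest in G, *Inhba*, *Inhbb* and *Tgfb2* in FSC, *Nog* in S, *Bmp15* in T and *Bmp4* in EC. In the test against each of the 7 other types (E was left out of this fit), 2 of the 10 members passed: *Tgfbr3l* in G and *Nog* in S. Over all 13621 genes tested, 0.139% passed in G and 0.044% in S; the shares in the other types were 1.32% in FSC, 0.206% in C, 0.00734% in T, 0.125% in L, 4.3% in Le and 2.2% in EC. Abundance differed widely among the members, from 61 UMIs of *Fst* and 142 of *Bmp4* to 23710 of *Tgfbr3l* in all kept cells. Fold changes are on the scale of the fit, which uses trimmed means (TMM) to scale the sums, and so can differ from ratios of CPM. Lower bounds against types without a UMI are ratios of CPM instead, with 3 UMIs in place of none, and could differ on the scale of the fit.

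**Figure D1:**
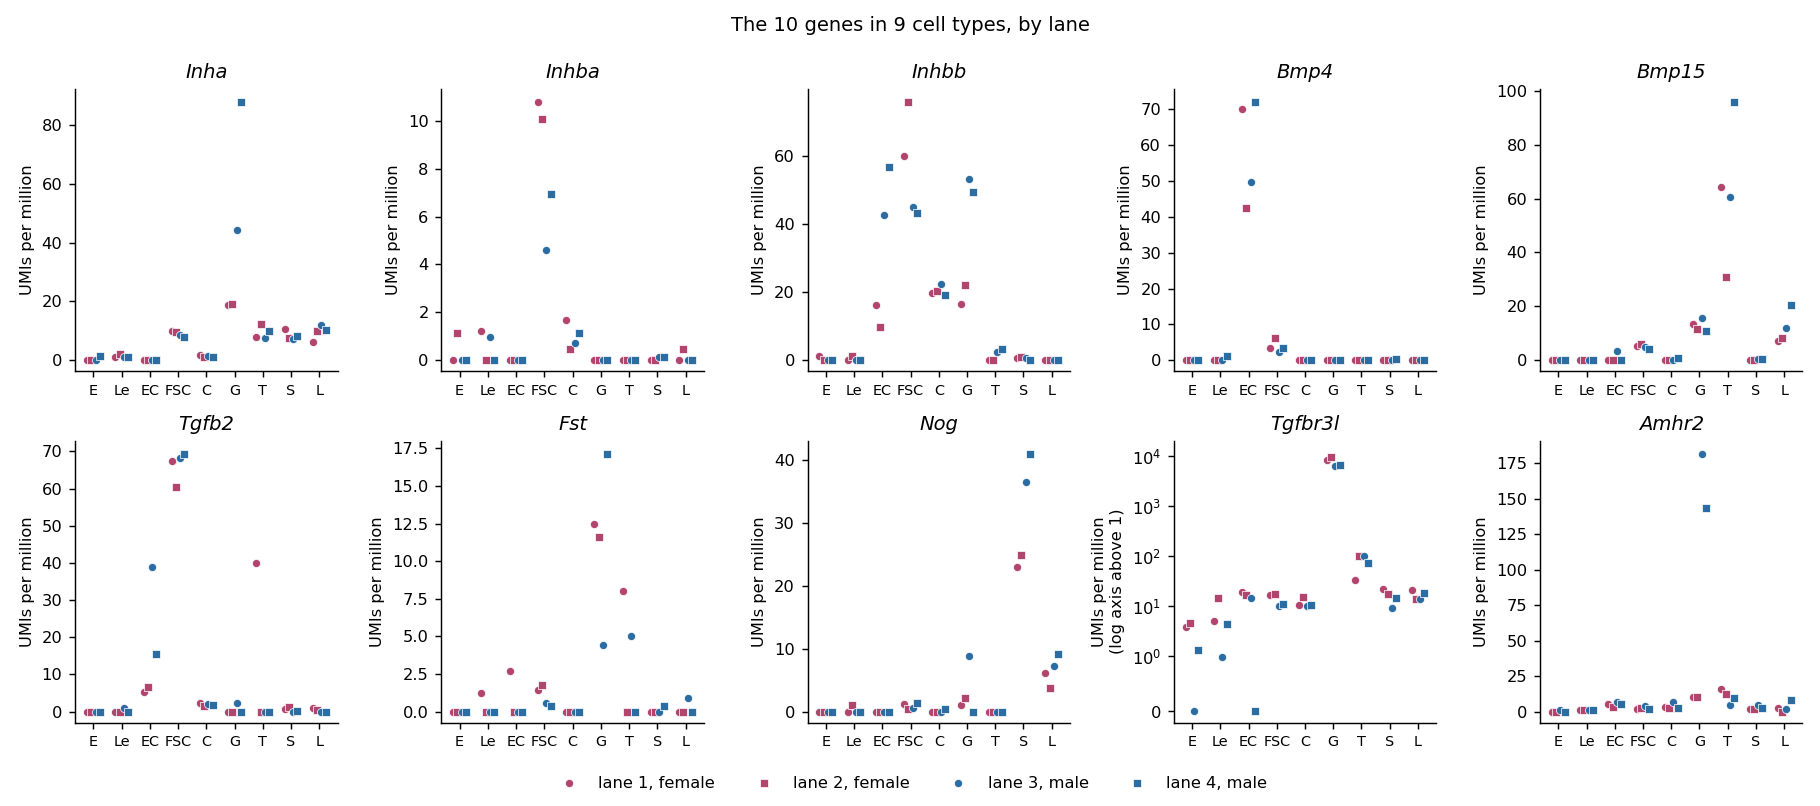
CPM (y axis) of each of the 10 genes in 9 cell types (x axis); points are lanes, red for female and blue for male, and the axis of *Tgfbr3l* is logarithmic above 1. *Tgfbr3l* lay between 6107 and 9464 in G, *Nog* was highest in S, *Tgfb2*, *Inhba* and *Inhbb* in FSC, *Bmp15* in T and *Bmp4* in EC.

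Within types, male and female lanes could be tested for 9 of the 10 members in 7 types, 26 tests in all; *Fst* had too few UMIs in every type, and no member had enough in Le. Of these tests 4 passed: *Amhr2* in G and *Nog* in S were higher in males, and *Tgfbr3l* in G and *Inhbb* in FSC were higher in females. Over all genes tested, the share that passed was 4.91% in G, 10.5% in S and 3.06% in FSC, beside 2 of 4 members in G, 1 of 4 in S and 1 of 8 in FSC. No member passed in C (2 tested, background 0.604%), T (2 tested, 1.53%), L (4 tested, 17.6%) or EC (2 tested, 0.814%), and the background in Le was 0.392%.

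**Figure D2:**
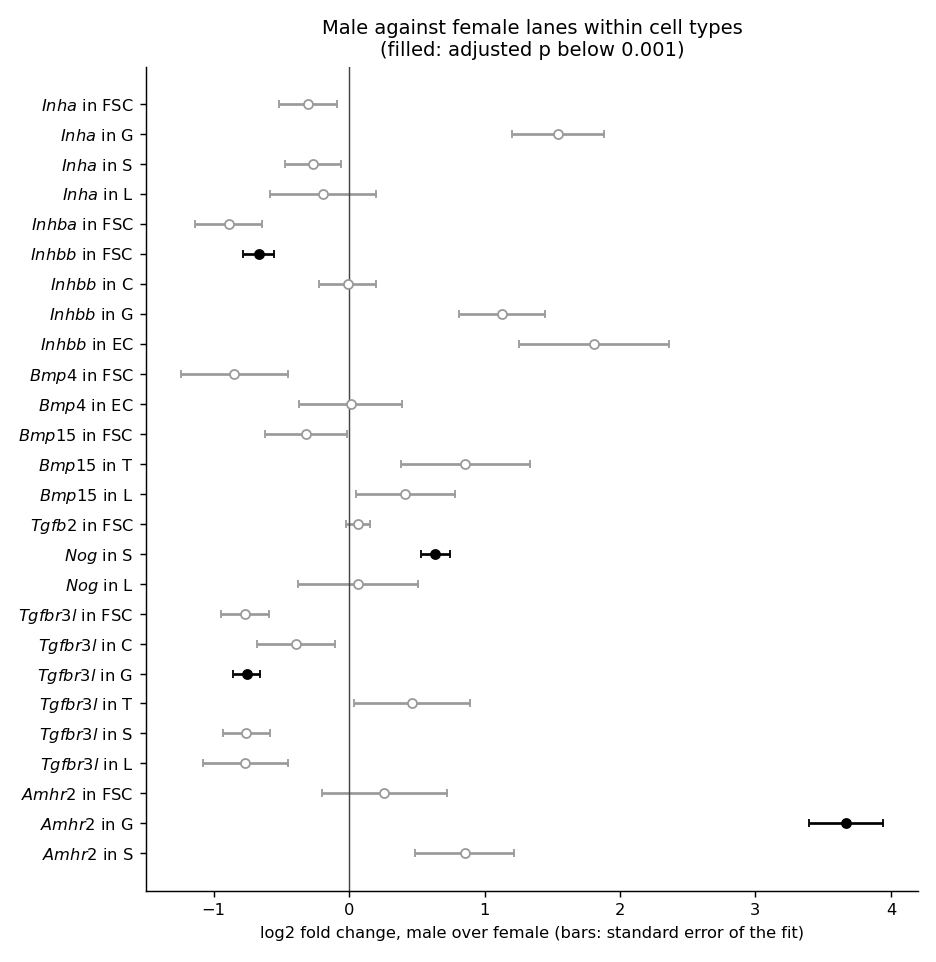
log2 fold change of male over female lanes (x axis) for the 26 tests of a member within a cell type (y axis), with the standard error of the fit; filled points had an adjusted p below 0.001. *Amhr2* in G lies at 3.67, apart from the other tests, which lie between -0.89 and 1.81.

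The alpha subunit gene *Inha* was detected in 8 of 9 types and was highest in G. In G its level was 18.7 and 19.0 CPM in the female lanes and 44.4 and 87.9 in the male lanes, so both male lanes lay above both female lanes. The share of G expressing it was 19.2% in females (28 of 146 cells, 13.1% to 26.5%) and 38.3% in males (36 of 94 cells, 28.5% to 48.9%). The male level was 2.91-fold the female level (log2 fold change 1.54, SE 0.34), which missed the limit with an adjusted p of 0.00404. With library size scaling, without the filter on low counts or with totals without hormone genes it passed (1.81, 1.48 and 1.67). Without lane 4 the log2 fold change was 0.97 with an adjusted p of 0.166, and without lane 1, 2 or 3 it was 1.45, 1.59 and 1.92 and passed as well. Outside G, *Inha* had 8.94 CPM in FSC, 8.25 in S, 9.07 in L and 9.13 in T, and these 4 types did not pass against each other. It was at 1.29 CPM in C and 1.36 in Le, and no UMI was found in EC, where 3 UMIs would be 2.60 CPM. G passed against FSC, Le, C and EC, and did not against S (adjusted p = 0.00618), L (0.0189) or T (0.0621). The log2 difference between the sexes in FSC, S and L was -0.31 (SE 0.21), -0.27 (SE 0.21) and -0.19 (SE 0.39), none of which passed.

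The beta B subunit gene *Inhbb* was the more abundant of the beta subunits. It had 55.1 CPM in FSC, 29.7 in G, 27.7 in EC and 20.4 in C. These 4 types did not pass against each other, with the lowest adjusted p at 0.0210 for FSC against C. In L no UMI was found among 6282855, which puts FSC at least 115-fold higher by CPM, and S and Le had 0.492 and 0.271 CPM. In FSC the lanes gave 60.1 and 75.8 CPM in females and 45.1 and 43.2 in males, without overlap. The male level was 0.629 times the female level (log2 fold change -0.67, SE 0.11, adjusted p = 6.30e-04). Expressing cells were 35.5% of female FSC (410 of 1154 cells, 32.8% to 38.4%) and 26.3% of male FSC (305 of 1158 cells, 23.8% to 29.0%). This call did not hold with any of the 4 lanes left out (log2 fold change -0.48 without lane 2 to -0.84 without lane 1, adjusted p 0.00120 to 0.0940), with DESeq2 (adjusted p = 0.00775), with library size scaling (0.00105), without the filter on low counts (0.0635) or with outliers and doublets kept (0.00370), while the direction stayed.

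The same gene lay the other way in G and EC. In G the lanes gave 16.6 and 22.2 CPM in females and 53.2 and 49.3 in males, a log2 fold change of 1.13 (SE 0.32) that missed the limit with an adjusted p of 0.0219. In EC they gave 16.2 and 9.78 against 42.5 and 56.6 (log2 fold change 1.81, SE 0.55, adjusted p = 0.108), which rested on 9 female and 23 male UMIs. In C the lanes gave 19.7, 20.2, 22.3 and 19.0 CPM, and the difference was -0.01 with a 95% interval of -0.43 to 0.41. The sex effects of the called members were compared between types in a fit of the 6 pituitary types, 20 comparisons of which 2 passed, with 0.325% to 7.86% of all genes passing in them. Each comparison included a type in which the member had been called in these same lanes. The shares of all genes carry no such selection and are not a like background. That of *Inhbb* differed between FSC and G by -1.79 on the log2 scale (SE 0.36, adjusted p = 5.01e-04), where 2.56% of all genes passed. The effect in FSC did not pass against that in C (-0.66, SE 0.26, adjusted p = 0.323), S (0.99, SE 0.77, adjusted p = 0.539) or T (-6.45, SE 4.46, adjusted p = 0.682), and L had no UMI to compare.

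*Inhba* encodes the beta A subunit, and FSC held 90.9% of its 164 UMIs. The level in FSC was 10.8 and 10.1 CPM in the female lanes and 4.62 and 6.94 in the male lanes. The male lanes lay below the female lanes, at a log2 fold change of -0.89 (SE 0.25) that missed the limit (adjusted p = 0.0269). No UMI was found in G, T or EC, and by CPM FSC were at least 7.42-fold above G. FSC passed against S alone, with C, the next type, at 0.965 CPM (adjusted p = 0.00351). G held *Inha* and *Inhbb* without a UMI of *Inhba*, and FSC held all 3 genes. S had 218 UMIs of *Inha* beside 2 of *Inhba* and 13 of *Inhbb*, and L had 57 of *Inha* beside 1 of *Inhba* and 0 of *Inhbb*.

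Cells with both subunits were counted in G, the cells in which inhibin acts on follicle-stimulating hormone. Both *Inha* and *Inhbb* were expressed in 6 of 146 female G and in 13 of 94 male G, beside 3.45 and 12.6 cells if the genes were independent. Cells with both genes had a median of 14873.5 UMIs against 9938.5 in cells with neither in females and 9675 against 8042.5 in males.

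*Tgfb2*, the gene of transforming growth factor beta 2, was concentrated in FSC with 95.5% of its 1317 UMIs. The lanes were alike, with 67.4 and 60.4 CPM in females and 68.2 and 69.4 in males. The log2 difference of 0.07 (SE 0.09) had a 95% interval of -0.11 to 0.24. The share of FSC expressing it was 30.9% in females and 35.8% in males. FSC passed against C, S, L, G and Le and did not against EC (15.6 CPM, adjusted p = 0.0198) or T (adjusted p = 0.00733), where all 5 UMIs came from lane 1. Among FSC with *Gpha2* and not *Krt7*, the share expressing *Tgfb2* was 36.2% of 458 cells in females and 38.3% of 371 in males. In cells with *Krt7* and not *Gpha2* the shares were 15.9% of 44 and 22.4% of 58. With neither gene, as in most FSC, they were 28.3% of 640 and 35.7% of 718. Cells are no replicates, so these differences have no test. In the same groups *Bmp15* was expressed in 6.77% and 5.12% of *Gpha2* cells and in 1.88% and 3.06% of cells with neither gene. It had no UMI in the *Krt7* cells. By the exact interval this limits the share of cells with a UMI, not of cells that express the gene, to 8.04% and 6.16%.

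The BMP ligands were highest per UMI in EC and T, although FSC, the most numerous cells, held more of their UMIs than any other type. *Bmp4* was at 70.0 and 42.4 CPM in the female lanes of EC and at 49.6 and 72.1 in the male lanes, which overlapped (log2 difference 0.01, 95% interval -0.74 to 0.76). EC held 47.2% of its 142 UMIs in 133 cells and FSC 50% in 2312 cells, at 3.75 CPM. EC passed against 6 of the 7 other types and missed against T (adjusted p = 0.00117). T had no UMI among 985247, so that by CPM EC stood at least 19.1-fold above T. No UMI was found in C, G, L or E either. In FSC the male level was lower, 2.80 against 4.92 CPM, without passing (log2 fold change -0.85, SE 0.39, adjusted p = 0.187).

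*Bmp15*, a growth factor known from the oocyte, had 94 of its 271 UMIs in FSC and 66 in T. Its level was highest in T, where 47.7% of cells expressed it (42 of 88 cells, 37.0% to 58.6%). The level in T was 64.1 and 30.8 CPM in the female lanes and 60.6 and 95.9 in the male lanes, which overlapped. The log2 difference of 0.86 (SE 0.48) did not pass, and each lane held only 5 to 29 UMIs. G had 12.7 CPM, L 10.3 and FSC 4.97, and T passed against FSC, EC, S, C and Le but not against G (adjusted p = 0.0141) or L (0.00994). In L the share of expressing cells depended on the threshold: 5.31% of female and 11.2% of male cells reached it, and 13.7% and 11.6% had at least 1 UMI, with a median depth of 18316 UMIs in female and 7253.5 in male L. C, S, EC, Le and E held 0 to 7 UMIs each.

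Of the antagonists, *Nog* was highest in S. S held 93.1% of its 934 UMIs, and the next type, L, lay 4.89-fold lower (log2 fold change 2.29, SE 0.35, adjusted p = 7.05e-04). This call did not hold without lane 2, 3 or 4 (log2 fold change 2.15 to 2.22, adjusted p 0.00160 to 0.00205) with library size scaling or outliers and doublets kept (2.25 and 2.18), or with E in the fit (adjusted p = 0.0859). The lanes gave 23.1 and 24.9 CPM in female S and 36.5 and 41.1 in male S, without overlap. *Nog* was 1.55-fold higher in males (log2 fold change 0.64, SE 0.11, adjusted p = 3.69e-05), and 37.7% of male S (34.8% to 40.8%) against 21.7% of female S (19.0% to 24.5%) expressed it. With each cell thinned to 2000 UMIs, 5.53% and 3.88% had a UMI, and the lanes then overlapped (4.31% and 3.44% in females, 3.89% and 7.06% in males), with male S at a median of 15457 and female S at 11565 UMIs before thinning. The difference did not pass with DESeq2 (adjusted p = 0.0132) or without lane 1 (log2 fold change 0.56, adjusted p = 0.00148). In L the same comparison gave 0.07 (SE 0.44). No *Nog* UMI was found in T, EC or E.

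*Fst* was scarce. Its 61 UMIs were in 38 cells, and G held 54.1% of them, at 12.5, 11.6, 4.44 and 17.1 CPM in lanes 1 to 4. G passed against S and C only. In FSC *Fst* had 19 UMIs in 2312 cells, and the sexes were not tested in any type.

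*Tgfbr3l*, which encodes a membrane protein related to betaglycan that serves as a coreceptor for inhibin B, was the member with the sharpest pattern. G held 95.9% of its UMIs, at 8267 and 9464 CPM in the female lanes and 6107 and 6558 in the male lanes. Nearly each G expressed it, 144 of 146 cells in females (98.6%) and 90 of 94 in males (95.7%). G stood 88.3-fold above the next type, T (log2 fold change 6.46, SE 0.34, adjusted p = 1.81e-08). The male level was 0.592 times the female level (log2 fold change -0.76, SE 0.10, adjusted p = 4.33e-05). This difference passed in each alternative, and its size was -0.49 by library size in place of TMM, since the scaling by library size moves the median of all genes in G to 0.28.

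Outside G, *Tgfbr3l* was found at low levels in all other types, from 2.54 CPM in E to 83.2 in T. Only 3 of 88 T reached its threshold of 6.77 scaled UMIs, while 23.9% had at least 1 UMI. In FSC, 11.9% of female and 8.38% of male cells had at least 1 UMI and 0 reached the threshold, and in E, which as red cells should lack the gene, 3.57% and 0.606% had 1, at median depths of 6895 UMIs in FSC and 8246 in E. Between the sexes the log2 fold changes in S, FSC and L were -0.76, -0.77 and -0.77, with adjusted p values of 0.00123, 0.00818 and 0.0534. In C it was -0.39 (SE 0.29) and in T 0.46 (SE 0.43), and none of the 5 types passed. *Lhb*, a marker of G, was at 98.7 CPM in female and 34.3 in male FSC and at 125 and 33.1 in S. For each 100 UMIs of *Lhb* there were 12.1 and 19.1 of *Tgfbr3l* in female and male G, 17.3 and 30.1 in FSC, 15.3 and 35.7 in S and 55.6 and 230 in T. The ratio was 12.0 and 35.5 in L, 12.7 and 34.8 in C and 21.1 in both sexes of EC. In Le and E it was below that of G, at 10.9 and 8.62 and at 11.5 and 2.94, the last from 1 UMI of *Tgfbr3l*. The part of free RNA from G in these levels was not tested.

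*Amhr2*, the type II receptor of anti-Müllerian hormone, had the largest difference between the sexes. Its level in G was 10.4 and 10.6 CPM in the female lanes and 182 and 144 in the male lanes. Male G were 12.7-fold higher (log2 fold change 3.67, SE 0.27, adjusted p = 6.04e-08), and the call held in each alternative, from 3.46 without lane 3 to 3.93 by library size. *Amhr2* was expressed in 57.4% of male G (54 of 94 cells, 46.8% to 67.6%) and 8.22% of female G (12 of 146 cells, 4.32% to 13.9%), although female G were deeper, with a median of 12383.5 UMIs against 8858. With cells thinned to 2000 UMIs, 26.6% and 2.74% had a UMI. In the other types it lay between 0.317 CPM in E and 9.13 in T, and none of the 7 types tested passed against another. G passed against C, S, FSC, L and Le, and did not against EC (adjusted p = 0.00246) or T (0.0613). The sex effect in G exceeded that in FSC by 3.41 on the log2 scale (SE 0.67, adjusted p = 3.17e-04). The differences from S (2.82, adjusted p = 0.00234) and C (3.09, adjusted p = 0.00976) missed the limit. So did those from T (4.36, SE 1.37, adjusted p = 0.0799) and L (2.29, SE 1.11, adjusted p = 0.222). In S the male level was 3.91 CPM against 2.08, without passing (adjusted p = 0.0868). The ligand gene *Amh* had 13 UMIs in all kept cells, 8 of them in Le and 0 in G. Of the male G that expressed *Inha*, 26 of 36 also expressed *Amhr2*, beside 20.7 if the genes were independent. In female G it was 5 of 28, beside 2.30. Cells with both genes were deeper than cells with neither, at a median of 9170.5 against 8103 UMIs in males and 13264 against 10273 in females.

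**Figure D3:**
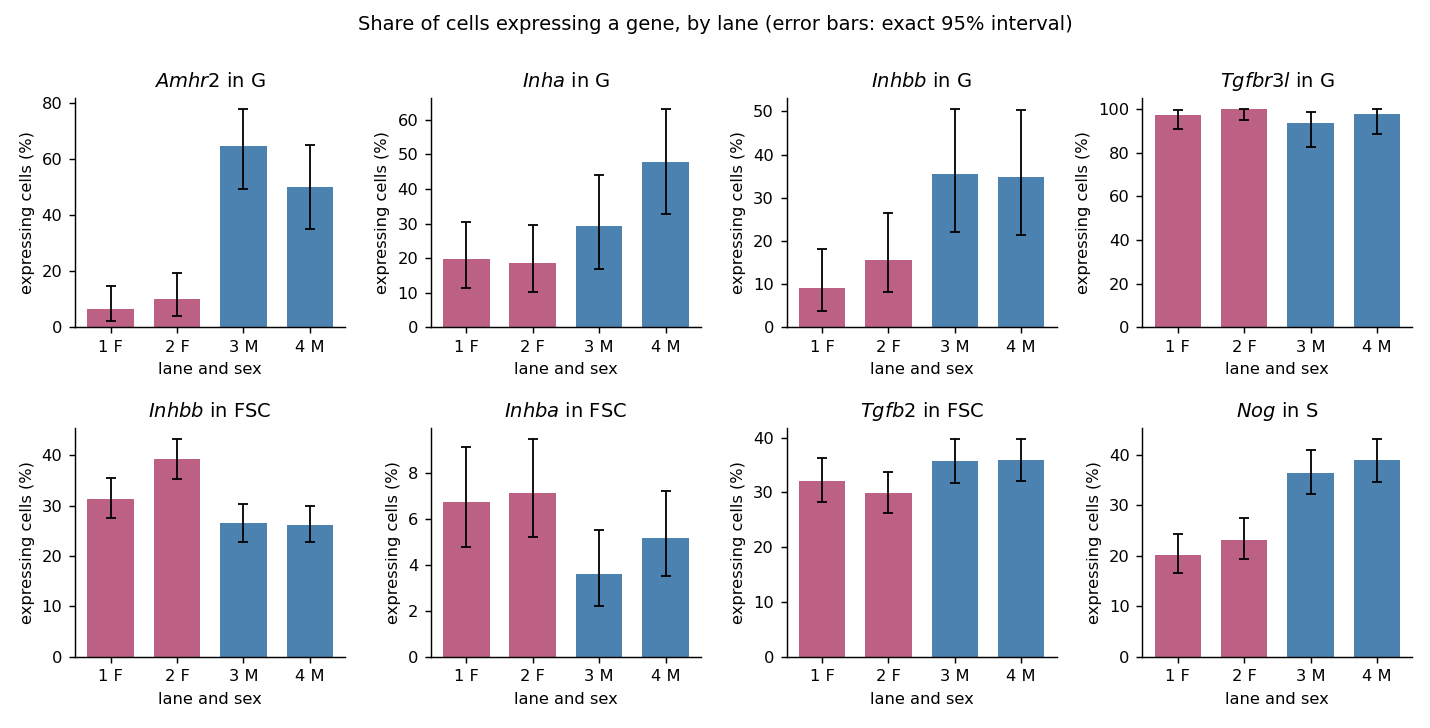
Share of cells expressing a gene in percent (y axis) by lane (x axis, F female and M male) for 8 pairs of gene and cell type; error bars are exact 95% intervals. *Amhr2* in G is at 6.58% and 10% in the female and 64.6% and 50% in the male lanes, while *Tgfbr3l* in G is above 93% and *Tgfb2* in FSC between 29.9% and 35.8% in all lanes.

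*Amhr2* and *Inha*, like *Inhbb*, had higher levels in both male lanes of G, and *Tgfbr3l* had lower levels there. Shown are the 250 bases before the annotated start of the receptors highest in G and of *Inha*, the ligand gene highest there. They are from RefSeq on GRCr8, a later assembly than that of the counts, and lie on the plus strand at chr12:7398467-7398716 (*Tgfbr3l*), chr7:135457672-135457921 (*Amhr2*) and chr9:84442859-84443108 (*Inha*). Capitals mark the letters AGGTCA, a core read by several nuclear receptors, on either strand.

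Tgfbr3l: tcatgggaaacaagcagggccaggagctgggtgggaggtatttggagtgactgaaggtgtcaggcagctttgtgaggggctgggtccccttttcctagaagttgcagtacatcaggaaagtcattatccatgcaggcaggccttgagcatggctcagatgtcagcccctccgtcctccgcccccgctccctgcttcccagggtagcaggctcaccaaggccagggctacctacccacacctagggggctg

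Amhr2: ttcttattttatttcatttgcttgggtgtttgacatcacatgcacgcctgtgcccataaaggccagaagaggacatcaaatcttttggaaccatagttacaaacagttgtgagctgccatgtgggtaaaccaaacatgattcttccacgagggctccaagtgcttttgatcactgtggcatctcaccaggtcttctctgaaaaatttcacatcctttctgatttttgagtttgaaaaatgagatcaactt

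Inha: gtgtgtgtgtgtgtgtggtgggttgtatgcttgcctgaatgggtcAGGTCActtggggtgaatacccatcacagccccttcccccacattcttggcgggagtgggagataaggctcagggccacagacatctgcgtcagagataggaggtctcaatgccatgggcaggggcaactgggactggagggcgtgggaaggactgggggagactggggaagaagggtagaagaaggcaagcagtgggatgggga

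Both strands were searched. AGGTCA was found in *Inha*, 205 bases before the start, in no other of the 9 members in the promoter table (*Fst* was not in it), and in 14.1% of all 33469 promoters. The longer AAGGTCA, which contains it and is read by the gonadotroph factor NR5A1, was in none of the 9 and in 3.99% of all. TGACGTCA, the full palindrome of the cAMP response element, was in none of the 9 and in 1.59% of all. Variant forms of these elements were not searched. A missing match says only that these letters are not in this window.

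By the rule of highest correlation over 18 sums of cell type and sex, on log2(CPM + 1) and with no test, the genes closest to each member were as follows. *Tgfbr3l* was closest to *Gnrhr* (r = 0.946), a marker used to assign G, *Nr5a1* (0.942), which encodes the transcription factor of gonadotroph identity, and *Otof* (0.941). *Amhr2* was closest to *Nmrk1* (0.903), *Megf11* (0.898) and *Amigo2* (0.876), each highest in G. *Inha* was closest to *Lrrc16b* (0.931), *Fam13a* (0.918) and *Cldn4* (0.911), the last highest in S and the others in G. *Nog* was closest to *Gabre* (0.911), *Smco2* (0.908) and LOC103692695 (0.887), each highest in S. *Bmp15* was closest to *Mdga2* (0.911), which was highest in G. Next were *Gdf11* (0.899), itself a ligand of this family, and *Tspan2* (0.891), both highest in T. For the genes of FSC and EC, *Tgfb2* was closest to *Fam163a* (0.951), *Rbpms* (0.927) and *Mamstr* (0.926), and *Inhba* to *Car3* (0.966), LOC103693178 (0.962) and *Slc39a12* (0.957). *Inhbb* was closest to *Dmrta2* (0.903), LOC103692392 (0.895) and *Nhsl1* (0.892), the last highest in G and the others in FSC. *Bmp4* was closest to *Thsd1* (0.995), *Chrm3* (0.995) and *Podxl* (0.984), each highest in EC. The sums share lanes and depth, and *Fst* had under 100 UMIs.

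A list of 80 other genes of the pathway was described beside the members; 50 of them had at least 100 UMIs and 6 had none. In the 6 pituitary types, 11 of 151 tests between the sexes passed (7.28%), 5 with higher levels in males and 6 in females, with *Fshb* in G left out as a marker. Without lane 1 or 2 this count was 7 and 6, and with DESeq2 it was 5. By type these were 4 of 47 in FSC, 2 of 19 in G, 3 of 33 in S and 2 of 20 in L, which is 8.51%, 10.5%, 9.09% and 10% beside the backgrounds given above, and 0 of 25 in C and 0 of 7 in T. The median log2 fold change of the list was -0.03 in FSC, 0.32 in G, 0.00357 in S and 0.44 in L, and that of all genes 0.00397, 0.01, 0.00577 and 0.02.

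All 4 called genes of FSC were lower in males, as were 240 of the 395 genes called there among all genes. *Fstl1*, a secreted follistatin-like protein, had 576 and 581 CPM in the female lanes and 402 in both male lanes. Its log2 fold change was -0.56 (SE 0.05, adjusted p = 2.46e-07). *Id3*, a target of BMP signalling, had 284 and 242 against 150 and 101 CPM (log2 fold change -1.11, SE 0.12, adjusted p = 4.47e-06), and *Id4* had 237 and 234 against 182 and 183 (-0.41, SE 0.06). *Rgma*, a BMP coreceptor, had 57.9 and 51.2 against 34.1 and 32.2 CPM (-0.76, SE 0.11).

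In G both called genes were antagonists of BMPs. *Nbl1* had 15.6 and 21.1 CPM in the female and 86.5 and 64.3 in the male lanes (1.76 on the log2 scale, SE 0.31, adjusted p = 5.62e-04). *Sostdc1* had 18.7 and 39.1 CPM in the female lanes, in 3.95% and 7.14% of cells. No UMI was found in male G, where 3 UMIs would be 3.27 CPM (adjusted p = 4.86e-04). Since few female G carried it, these counts give no firm lower bound for the fold. *Sostdc1* was higher in L, and the part of RNA from L in its level in G was not tested. *Fshb*, the target of activin and itself a marker of G, was at 1755 CPM in female and 8127 in male G, as a description.

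*Sostdc1* was higher in males in L, at 71.2 and 56.9 against 177 and 233 CPM (log2 fold change 1.02, SE 0.13, adjusted p = 7.14e-09). *Grem1*, another secreted antagonist of BMPs, gave 5.66 and 1.43 against 22.0 and 26.6 CPM in L (2.09, SE 0.41, adjusted p = 4.68e-05). Median depths of L differed as given above, and scaling by library size moves the median of all genes in L to 0.66. In S the coreceptor *Rgmb* (0.86, SE 0.17) and *Skil*, a repressor of SMAD output (1.04, SE 0.15), were higher in males, and the decoy receptor *Bambi* was lower (-0.65, SE 0.09).

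Between types, the share of all genes that passed was 4.3% in Le, 2.2% in EC and 0.00734% (T) to 1.32% (FSC) in the pituitary types. Of the list, 52 genes were tested, and *Fshb*, 1 of them, was again left out of the counts. The list genes higher in 1 type than in each other numbered 13, with 7 in Le, 6 in EC and 0 in the pituitary types. In EC these were the receptors *Tgfbr2* at 1477 CPM, *Eng* at 800 and *Bmpr2* at 266, with *Smad1* at 92.7 and the targets *Id1* at 249 and *Id3* at 1107. In Le they were the type I receptor *Tgfbr1* at 124 CPM, the ligand *Gdf15* at 43.4, the corepressors *Ski*, *Skil* and *Tgif1* at 188, 117 and 201, and *Id2* and *Tgfbi* at 323 and 28.2. *Eng*, an endothelial coreceptor, stood 44.4-fold above the next type and *Tgfbr2* 6.51-fold.

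Receptors that bind the members' products varied in level. The activin type II receptor *Acvr2b* lay between 8.14 CPM in S and 15.5 in FSC among the 6 pituitary types. *Acvr2a* was lowest among them in L (9 UMIs in 484 cells) and highest in C (28 UMIs in 794 cells), and *Acvr1b* had 8 UMIs in all 9 types. The kit reads 3′ ends, and whether the annotated end of *Acvr1b* lowers its count was not tested. The TGF-beta type II receptor *Tgfbr2* had 18.5 CPM in FSC, 3 UMIs each in G and T and 9 in C. *Tgfbr1* had 8.20 CPM in FSC, the type that held *Tgfb2*, and 8.89 (S) to 17.3 (G) in the other pituitary types. *Tgfbr3*, which encodes betaglycan, a coreceptor of inhibin A among other ligands, was at 121 CPM in G, 64.1 in EC and 38.6 in T. *Bmpr1a* was at 9.15 CPM in FSC and 3.37 in S, which held *Nog*, and had no UMI in EC.

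**Figure D4:**
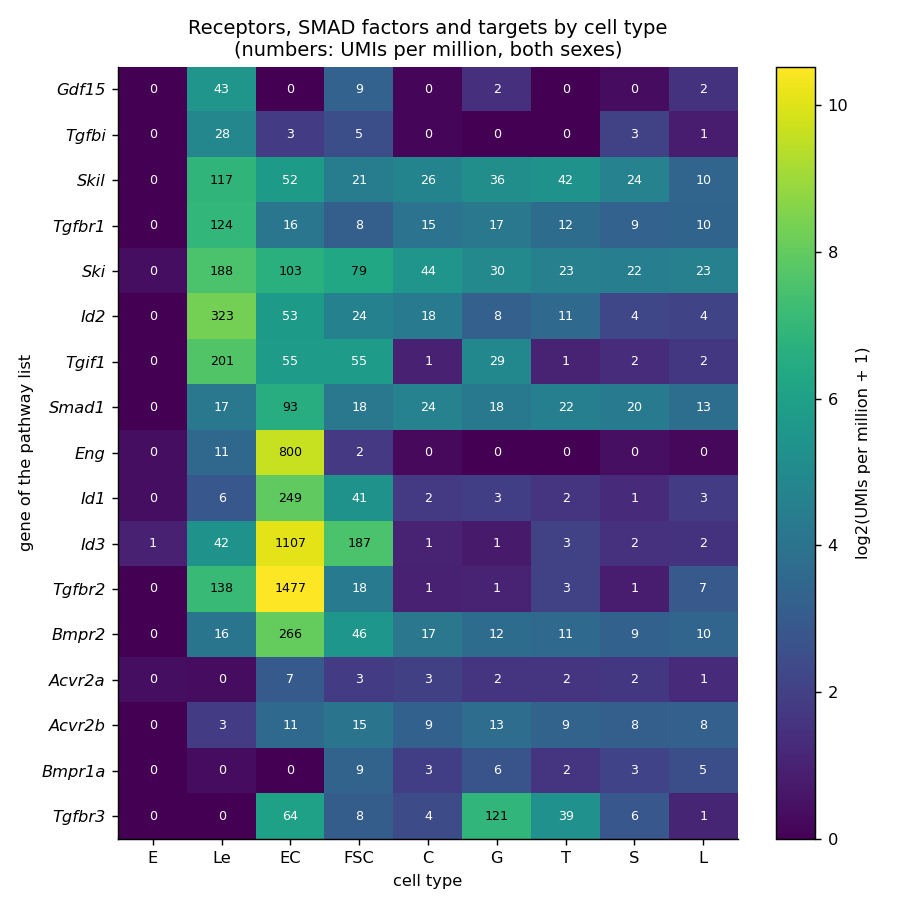
Heat map of log2(CPM + 1) for the 13 genes of the pathway list called in Le or EC and 4 receptor genes (rows) in 9 cell types (columns), with the CPM of both sexes printed in each field. *Tgfbr2*, *Id3* and *Eng* reach 1477, 1107 and 800 CPM in EC, and *Tgfbr3* is highest in G at 121.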

How the data were processed

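The measurements are UMI counts of single cells from 1 female and 1 male pool on 4 lanes. Per the labels and the study's methods, the authors made the UMI counts with Cell Ranger 2.1 and an NCBI rat annotation whose 3′ gene ends they had extended, and equalized mapped reads between lanes. The deposited values are whole counts with no further normalization. The barcode's number gives the lane, and lanes were matched to a sex by the cells per lane that the study gives. Cells were assigned by markers (*Hba-a1* and *Hba-a2* read as *Hba1* and *Hba2*), then by 30 neighbours, and mitochondrial (2 SD) and depth outliers (1.5% at each end), doublets (called against simulated ones, adjusted p below 0.01) and ambiguous cells were left out. Counts were scaled to a median of 8853 UMIs for Otsu thresholds (256 bins).

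Sums were taken per type and lane (between the sexes) or per type and sex (between types, sex as a term). They were tested on all genes with edgeR 4.0.16 (TMM, filterByExpr with a minimum count of 10, 2-sided). A check on simulated data used changes larger than most called here, so it does not cover small changes or scarce genes. Alternatives were DESeq2 1.42.0, library size, no filter, a limit of 0.05, other cell selections, totals without hormone genes, lanes as libraries, E in the fit, thinning to 2000 UMIs and each lane left out. Named genes were all members, pathway genes called in a pituitary type or highest in 1 type, direct partners, and the 3 genes most alike to each member. Members and lists were chosen with earlier results of these data known. Pericytes, melanotrophs and posterior lobe cells are in the closing section only.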

Additional observations from a re-analysis of the deposited data

Results flagged for a closer look

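Sex effects of 2 members differed between cell types by the interaction test, in 2 of 20 comparisons, both between FSC and G, where 2.56% of all genes passed. Only members already called between the sexes in these lanes were compared, so that share is not a like background. The call of *Inhbb* in FSC did not hold with any lane left out. For *Inhbb* the effect in FSC minus that in G was -1.79 on the log2 scale, and for *Amhr2* the effect in G minus that in FSC was 3.41.

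Signals were also found in cells set aside before the tests. In 51 pericytes *Bmp4* had 110 CPM from 40 UMIs, with 207, 64.9, 75.0 and 85.8 CPM in lanes 1 to 4, beside 58.0 CPM in EC. In 59 posterior lobe cells, 55 of them male, *Tgfb2* had 49.6 CPM from 33 UMIs, beside 66.5 in FSC, and *Inhba* and *Bmp4* had 24.1 CPM each from 16 UMIs. Of these, 25 *Tgfb2*, 7 *Inhba* and 15 *Bmp4* UMIs were from lane 4 (74.0, 20.7 and 44.4 CPM) and 8, 9 and 1 from lane 3 (29.4, 33.1 and 3.68 CPM), so that without lane 4 *Bmp4* rested on 1 UMI. *Bmp4* was expressed in 4 of the cells. In 60 melanotrophs, 56 of them male, *Inha* had 13.8 CPM from 10 UMIs. These values have no test, and how much they owe to neighbouring cell types was not tested.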

How the results depend on the processing

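The number of tests of a member between the sexes that passed, each within 1 cell type, was 4, with 2 by DESeq2 and 9 at a limit of 0.05. At 0.05 *Tgfbr3l* passed in FSC, G and S and *Inhbb* in FSC and G, so these are not different members. The number of members highest in 1 type was 2, with 6 without the filter on low counts, 6 at a limit of 0.05 and 5 with lanes as libraries. It was 1 with E in the fit and 1 to 2 with a lane left out. *Bmp4* in EC was called in 7 and *Tgfb2* in FSC and *Bmp15* in T in 3 alternatives. The 11 differences of the pathway list became 5 by DESeq2, 6 without the filter, 21 at a limit of 0.05 and 6 to 10 with a lane left out. Differences that did not pass changed sign in some settings. *Inhbb* in C was 0.0489 by library size, 0.0108 without the filter, 0.0547 with cells classified by markers, 0.0699 with outliers and doublets kept, 0.00328 with totals without hormone genes and -0.139 to 0.101 with a lane left out. *Tgfbr3l* in T was -1.42 with outliers and doublets kept, *Inha* in L 0.46 by library size and 0.20 with totals without hormone genes, *Bmp4* in EC -0.0439 without the filter, and *Inhba* in FSC against the closest type -0.63 with E in the fit. With a lane left out, *Tgfb2* in FSC was -0.00488 to 0.134, *Amhr2* in FSC -0.174 to 0.71, *Tgfbr3l* in T -0.0598 to 1.61, *Nog* in L -0.25 to 0.42, *Inha* in L -0.53 to 0.18 and *Bmp4* in EC -0.29 to 0.40. The cause was not tested. No paired analysis was possible because the lanes of a sex are technical replicates of 1 pool, so no female lane has a male partner. The replicate number of each lane is not known either. With 2 lanes a sex, 88 T and 133 EC, differences in these types were not detectable unless large, and intervals do not cover animals.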
